A study of Homo sapiens with 36 samples.

Results

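U373cc3 cells irradiated with UV were compared with U373neo cells irradiated in the same way, both harvested 2 h after exposure. U373 is an established glioblastoma line that lacks the protein CC3. U373cc3 is a clone stably transfected to express CC3 (the product of HTATIP2, also called TIP30), and U373neo is a clone of the same line carrying the empty vector. The labels give a dose of 20 J/m2 for both clones, while the methods of the study state a lower dose for the arrays. Irradiated U373cc3 and irradiated U373neo cells gave 3 biological replicates each, 6 of the 12 replicates of the series, and each replicate was hybridized to 3 arrays of the Human OneArray type in the single dye Cy5, giving 18 of the 36 arrays. The other 18 arrays held U373cc3 and U373neo cells without UV and were used only to set the same contrast beside. Of 30968 probes on the array table, the 12343 with values on all 18 UV arrays were compared, 741 of which had no value on the untreated arrays. These probes named 8310 genes, and 3196 of them carried no gene symbol. As 1 clone stood for each state of CC3, all p-values measure the spread between cultures, which were harvested in triplicate, and not the spread between clones.

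CC3 is a relative of short-chain dehydrogenases that binds importins and slows the entry of proteins into the nucleus, and its expression is often lost in aggressive tumors. UV light makes bulky lesions in DNA that stall RNA polymerase and are removed by nucleotide excision repair. Within minutes to hours it also activates stress kinases, which switch on immediate early genes such as FOS and EGR1 without new protein synthesis.

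Arrays of a clone mostly resembled each other more than arrays of different clones, with median correlations of 0.989 between replicates of a clone and 0.972 between clones. The ranges overlapped slightly. Pearson's r between log2 intensities was 0.977 to 0.995 for technical arrays of a replicate, 0.972 to 0.996 for replicates of a clone and 0.950 to 0.977 between the clones. The mean standard deviation (SD) between replicates was 0.138 log2 units in irradiated U373cc3 and 0.128 in irradiated U373neo. The array serial numbers in the labels fell into separate ranges, and the clones did not share them evenly. U373cc3 replicates 1 and 2 (6 arrays) lay in a range that held no irradiated U373neo array, while U373cc3 replicate 3 (3 arrays) lay in the range of all 9 U373neo arrays. The probe of HTATIP2 was blank on all arrays, so the transgene could not be checked here, and the probes of the glial and mesenchymal markers GFAP and VIM were blank as well. Of the astrocyte and glioma markers listed, 6 had values and 1 differed, SLC1A2, a glutamate transporter whose log2 difference was -0.92. Of the 6 it alone lies on chromosomes 11 and 13, where most genes were lower. Over all genes 19.1% were higher in U373cc3 and 21.0% lower. In bulk cultures, fewer cells of a type and less RNA per cell cannot be told apart.

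At an adjusted p at or under 0.05 (limma with Benjamini-Hochberg adjustment over the 12343 probes), 4593 probes differed between the irradiated clones, 37.2% of those tested. U373cc3 was higher for 2200 probes (17.8%) and lower for 2393 (19.4%). Most of these differences were small, as 65.9% of them were under 1.5-fold. At least 2-fold differences were 168 higher and 249 lower in U373cc3, together 3.38% of the probes, and at least 4-fold differences were 24 higher and 16 lower. The 3 replicates of a clone lay wholly to one side of those of the other for 6295 probes (51.0%), which included 4591 of the 4593. Counted by gene, with the brightest probe standing for genes that have several, 1585 genes were higher in U373cc3 (19.1% of 8310) and 1744 were lower (21.0%). Within the shared serial range, U373cc3 replicate 3 against the 3 U373neo replicates, 2627 probes passed. Of the 4593 probes 2281 passed there too, and of the 417 that were at least 2-fold 408 passed. That fit reuses 4 of the 6 replicates, so it is no independent test, and it assumes that the single U373cc3 replicate varies like the others. Over all 36 arrays, with the 4 groups in the fit, 471 probes differed between these serial ranges, and 175 of those also differed between the irradiated clones. That is close to the share over all probes with values on both treatments, of which 38.3% differed between the irradiated clones.

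The largest rises in U373cc3 were those of SDC2, GPM6B, SPOCK1 and CDH19. SDC2, which encodes the heparan sulphate proteoglycan syndecan 2, read 1612, 1489 and 1319 intensity units in U373cc3, against 103, 115 and 106 in U373neo, a 13.6-fold difference (log2 3.76, SE 0.09, adjusted p = 7.49e-06). GPM6B, a membrane proteolipid of neural cells, read 3035, 3118 and 2837 in U373cc3 and 211, 238 and 242 in U373neo (13.03-fold, log2 3.70, SE 0.08). SPOCK1, a secreted proteoglycan of the testican family, read 1920, 1925 and 1906 in U373cc3 and 131, 151 and 163 in U373neo (12.9-fold). CDH19, a cadherin of the neural crest lineage, followed with 947, 945 and 938 in U373cc3 against 113, 134 and 119 in U373neo (7.76-fold). Only genes whose clone replicates did not overlap were ranked. In U373neo SDC2 and CDH19 were among the dimmest probes, with 2.50% and 5.2% of all probes below them. The untreated clones showed differences of similar size for the same 4 genes, log2 3.80, 3.89, 3.44 and 2.99, and none of the 4 contrasts differed between the treatments.

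The next genes in rank were regulators and enzymes of several kinds. TBX2, a T-box repressor of transcription, averaged 3852 ± 301 in U373cc3 and 562 ± 33.6 in U373neo (SD, n = 3 each), a 6.85-fold difference. BLM, the DNA helicase mutated in Bloom syndrome, averaged 2856 ± 93.5 in U373cc3 and 580 ± 4.42 in U373neo (4.92-fold). CALCB, which encodes a calcitonin gene-related peptide, averaged 5178 ± 108 in U373cc3 and 1086 ± 27.4 in U373neo (4.77-fold), although it lies on chromosome 11, where most genes were lower. HSPA6, a heat-inducible chaperone of the HSP70 family whose probe was not tested for signal from close relatives, averaged 779 ± 11.7 in U373cc3 and 168 ± 25.4 in U373neo (4.67-fold). Among the 20 largest rises were also CHODL, RPL39L, SORBS2, DOCK11, BANK1, GDF1, GALNT14, GLIPR2 and STAC, with log2 differences of 2.06 to 2.57, and the immediate early genes EGR1, FOS and FOSB. All 20 were also higher in untreated U373cc3.

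**Figure D1:**
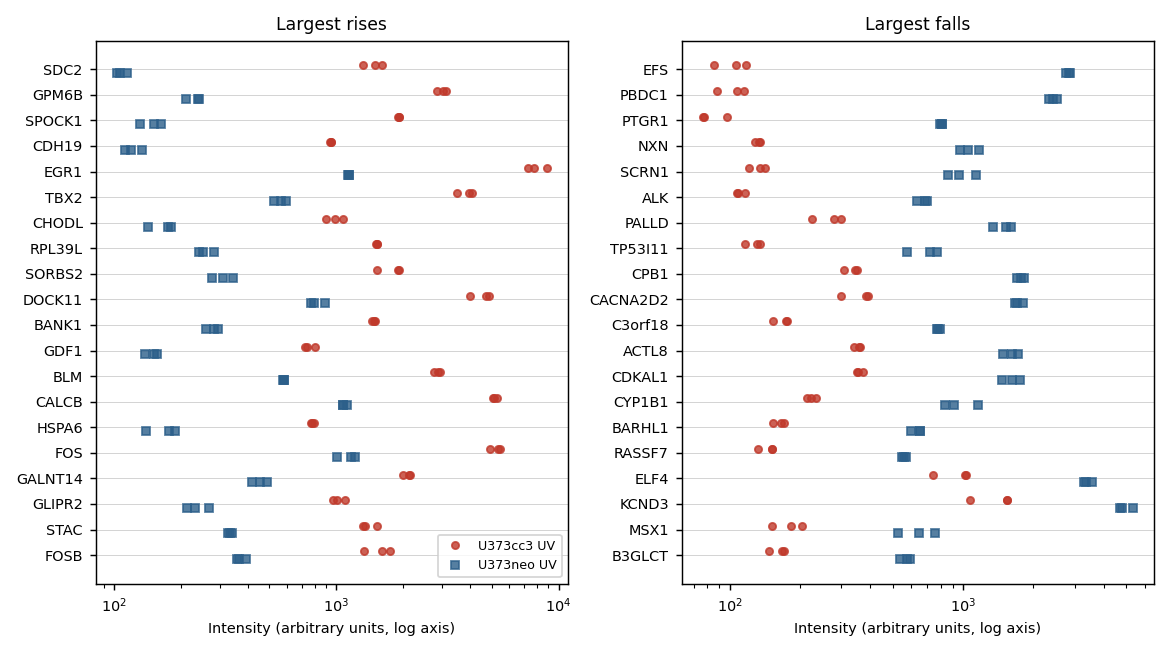
Probe intensity (log axis) of the 20 genes with the largest rise (left) and the 20 with the largest fall (right) in irradiated U373cc3 (red circles) against irradiated U373neo (blue squares), 1 point per biological replicate. The genes were taken from those past the threshold whose clone replicates did not overlap. Measured differences reached 13.6-fold for SDC2 on the left and 27.6-fold for EFS on the right. The U373cc3 values of EFS lie near the lower end of the array's scale.

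The largest measured falls were 3 genes that could be read only on the UV arrays. EFS, a docking protein of the Cas family that works with Src kinases, read 85.4, 107 and 118 in U373cc3, against 2874, 2751 and 2850 in U373neo, a 27.6-fold lower level in U373cc3 (log2 -4.79, SE 0.12, adjusted p = 7.49e-06). PBDC1, a gene of the X chromosome, read 107, 88.3 and 115 in U373cc3 and 2339, 2433 and 2517 in U373neo (23.6-fold lower, log2 -4.56). PTGR1, an NADPH-dependent reductase of prostaglandins and leukotrienes, read 77.2, 97.7 and 76.9 in U373cc3 and 813, 809 and 799 in U373neo (9.67-fold lower). EFS and PBDC1 were bright in U373neo, while PTGR1 lay near the UV array medians of 746 to 748. All 3 were dim in U373cc3, where 1.98% of all probes read lower than EFS, 2.03% lower than PBDC1 and 0.259% lower than PTGR1. How far such levels lie above the background of the array was not tested, so the folds of these genes may understate the difference and their order is open to that limit. Whether the clones differ in them without UV was not tested, since both untreated groups are blank.

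NXN, which encodes the thioredoxin-like protein nucleoredoxin, read 128, 134 and 134 in U373cc3 and 971, 1163 and 1047 in U373neo (8.0-fold lower, log2 -3.00, SE 0.08). SCRN1, a cytosolic protein linked to exocytosis, averaged 133 ± 10.4 in U373cc3 and 984 ± 141 in U373neo (7.39-fold lower). ALK, a receptor tyrosine kinase of the nervous system, averaged 111 ± 4.69 in U373cc3 and 674 ± 33.4 in U373neo (6.08-fold lower). PALLD, which encodes the actin-bundling protein palladin, averaged 269 ± 39.0 in U373cc3 and 1487 ± 132 in U373neo (5.56-fold lower). In U373cc3 the levels of NXN, SCRN1 and ALK were low on the scale of the array, with 7.32%, 7.41% and 3.19% of all probes below them. The other genes among the 20 largest falls, with log2 differences of -2.43 to -1.81, included CYP1B1 (a cytochrome P450 of steroid and xenobiotic metabolism), KCND3 and CACNA2D2 (subunits of potassium and calcium channels), CDKAL1 (a tRNA-modifying enzyme) and the transcription factors ELF4, MSX1 and BARHL1. The remaining 6 were TP53I11, CPB1, C3orf18, ACTL8, RASSF7 and B3GLCT. The 17 falls with values on the untreated arrays were lower in untreated U373cc3 too.

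The 741 probes that had values after UV but none on the untreated arrays were dim, with a median intensity of 125 against 843 for the probes read on both sets. Of them 148 differed between the irradiated clones (20.0%), 59 higher and 89 lower, while 38.3% of the probes read on both sets did. Only 2 of the 59 and 18 of the 89 were at least 2-fold. Behind EFS, PBDC1 and PTGR1, SPATA18, a p53-regulated gene of mitochondrial quality control, averaged 98.7 ± 6.12 in U373cc3 and 299 ± 28.6 in U373neo (3.03-fold lower). COQ8B, SLC27A3, NTNG2 and SLC66A3 were lower by log2 -1.38, -1.33, -1.32 and -1.17. Among the rises, NPTX2, a secreted neuronal pentraxin, read 507, 402 and 407 in U373cc3 and 131, 143 and 142 in U373neo (3.14-fold), and LEAP2, an antagonist of the ghrelin receptor, averaged 232 ± 31.0 in U373cc3 and 99.5 ± 15.7 in U373neo (2.34-fold). NAT16, TUFT1, SLC10A4, CHAC1, ANKRD7 and RHEBL1 were higher by log2 0.78 to 0.96, of which ANKRD7 was not past the threshold within the shared serial range (adjusted p = 0.14).

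Most of what distinguished the irradiated clones also distinguished the untreated ones. Of 11602 probes with values on both sets, 2141 were higher in U373cc3 after UV and 2021 without UV, and 1204 were higher in both, which is 56.2% of the first number and 59.6% of the second. Lower in U373cc3 were 2304 after UV and 1997 without UV, and 1261 in both (54.7% and 63.1%). These contrasts share no arrays, though they share the 2 clones. Opposite calls were rare, with 15 probes higher after UV and lower without, and 35 the other way round. Of the 397 probes with an at least 2-fold difference after UV, 396 had the same sign without UV and 385 were also past the threshold. Taken over the 11602 probes, whose values are not independent of each other, the log2 difference after UV correlated with that without UV at r = 0.71 (Spearman's rho 0.57).

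**Figure D2:**
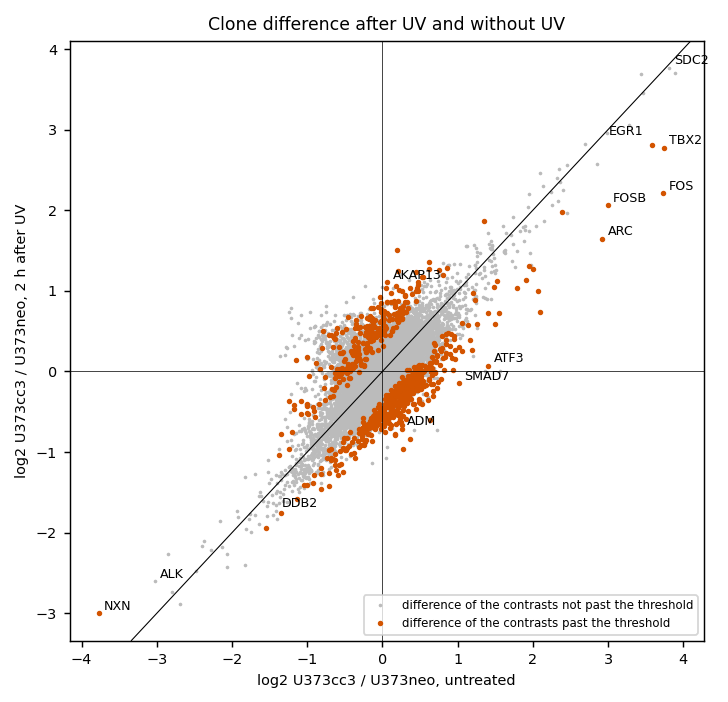
Log2 difference U373cc3 over U373neo 2 h after UV (vertical axis) against the same difference without UV (horizontal axis) for 11602 probes, with the line of equality. Orange points are the 719 probes whose difference changed with UV, such as FOS (2.21 after UV, 3.73 without), and most of them lie below the line.

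The clone contrast itself differed between irradiated and untreated cells for 719 of the 11602 probes (6.20%), in a fit over all 12 replicates after the 36 arrays had been normalized together by quantiles. The contrast was higher after UV for 255 probes and lower for 464. Of the 719, 301 differed between the clones after UV only, 202 without UV only, 147 in the same direction under both treatments and 50 in opposite directions. This count depended on single cultures. It was 229 without U373neo UV replicate 2, 274 without U373neo UV replicate 3 and 422 without U373cc3 UV replicate 1. It was 414, 288 and 385 without untreated U373cc3 replicates 1, 2 and 3, and 436 and 363 without untreated U373neo replicates 2 and 3. The genes named below as lower after UV kept their call in all 16 alternatives tried unless stated.

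Among the gene lists, immediate early genes had the largest share of such changes. Of 35 measured genes of this class, 18 were higher in irradiated U373cc3, 4 were lower and 13 did not pass, against 19.1% higher and 21.0% lower over all genes. The list's median log2 difference was 0.39 after UV and 0.82 without UV, while the median over all genes was 0.01. Of these genes 33 had untreated values, and the contrast differed between the treatments for 16 of the 33, against 6.20% of the probes with values on both sets. It was lower after UV for 15 of the 16. EGR1, a zinc finger transcription factor, read 7323, 8856 and 7760 in irradiated U373cc3, against 1144, 1133 and 1142 in irradiated U373neo (6.98-fold, log2 2.80, SE 0.08, adjusted p = 1.03e-05). FOS, a subunit of the transcription factor AP-1, read 5336, 5427 and 4918 in U373cc3 and 1010, 1221 and 1162 in U373neo (4.63-fold, log2 2.21, SE 0.09). FOSB, another AP-1 subunit, read 1751, 1606 and 1335 in U373cc3 and 358, 393 and 366 in U373neo (4.17-fold). ARC, a gene of neuronal activity, read 1133, 1190 and 1214 in U373cc3 and 352, 391.9 and 388 in U373neo (3.13-fold). DUSP2, PLK3, PPP1R15A, IER2, HBEGF, NR4A3 and DUSP4 were higher in U373cc3 by log2 0.63 to 1.27, and JUN by 0.50. The 4 lower members were IER5 (log2 -0.73), ZFP36L1, NR4A2 and SRF.

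The promoters of the 3 immediate early genes that differed most are shown because these genes share induction by stress kinases through serum response and cyclic AMP response elements. Each is a RefSeq sequence of the build GRCh38.p14, 250 bases before to 50 bases after the annotated start, with CArG boxes (the core of the serum response element) in capitals.
EGR1 chr5:138465229-138465528 plus strand: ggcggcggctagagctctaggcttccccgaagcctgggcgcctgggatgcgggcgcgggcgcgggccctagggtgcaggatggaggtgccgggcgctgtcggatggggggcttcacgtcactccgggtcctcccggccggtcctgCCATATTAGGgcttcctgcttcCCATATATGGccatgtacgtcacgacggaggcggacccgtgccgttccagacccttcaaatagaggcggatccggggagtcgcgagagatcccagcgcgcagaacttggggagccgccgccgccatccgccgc
FOS chr14:75278578-75278877 plus strand: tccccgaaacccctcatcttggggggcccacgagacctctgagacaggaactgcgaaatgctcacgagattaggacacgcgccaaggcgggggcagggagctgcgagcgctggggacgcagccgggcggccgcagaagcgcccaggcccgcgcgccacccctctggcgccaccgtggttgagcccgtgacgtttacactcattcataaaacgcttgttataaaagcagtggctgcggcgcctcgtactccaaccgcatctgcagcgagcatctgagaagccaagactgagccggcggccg
FOSB chr19:45467746-45468045 plus strand: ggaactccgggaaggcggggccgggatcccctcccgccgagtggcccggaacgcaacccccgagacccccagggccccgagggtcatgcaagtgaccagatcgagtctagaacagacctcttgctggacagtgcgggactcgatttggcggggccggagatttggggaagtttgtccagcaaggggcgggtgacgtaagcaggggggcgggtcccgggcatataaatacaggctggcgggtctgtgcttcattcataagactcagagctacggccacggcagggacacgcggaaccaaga
Both strands were searched for the CArG box, for the cyclic AMP response element TGACGTCA and for the AP-1 element TGACTCA, motifs that do not contain one another. EGR1 held 2 CArG boxes, at -105 to -96 and -83 to -74 from the start, and no exact match of the others. The windows of FOS and FOSB held no exact match of the 3 motifs. Variant forms and elements outside these windows were not searched, so their absence from these genes was not tested. Of 27305 promoters of this length, 1.29% held a CArG box, 1.98% the cyclic AMP response element and 4.92% the AP-1 element. Among the 26 immediate early genes with a promoter in the table, EGR1 and SRF held a CArG box, JUND, DUSP1 and PPP1R15A the cyclic AMP response element, and FOSL2 the AP-1 element.

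The contrasts of FOS, EGR1 and ARC were narrower after UV with higher values in U373neo, as the jointly normalized intensities show. FOS read 5419, 5504 and 5017 in irradiated U373cc3 and 1093, 1313 and 1250 in irradiated U373neo, against 5431, 5825 and 6356 in untreated U373cc3 and 419, 421 and 397 in untreated U373neo. U373cc3 had overlapping FOS values with and without UV, whereas the U373neo values after UV were all above those without. The FOS contrast was 3.25-fold smaller after UV (log2 -1.70, SE 0.12, adjusted p = 9.11e-05). EGR1 averaged 7926 in irradiated U373cc3 and 1228 in irradiated U373neo, against 8462 in untreated U373cc3 and 635 in untreated U373neo (log2 -1.03, SE 0.17, adjusted p = 0.0095). ARC averaged 1268 in irradiated U373cc3 and 408 in irradiated U373neo, against 1131 in untreated U373cc3 and 154 in untreated U373neo (log2 -1.24). The ARC values of U373cc3 after UV were all above those without. FOSB, with a smaller difference of -0.89, was higher after UV in both clones, at 1676 in irradiated U373cc3 and 403 in irradiated U373neo, against 1182 in untreated U373cc3 and 154 in untreated U373neo.

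In other genes the difference between the clones was not past the threshold after UV. ATF3, a stress-induced repressor of the ATF family, read 5155, 4813 and 4018 in irradiated U373cc3 and 4478, 4564 and 4252 in irradiated U373neo on the deposited scale, overlapping values with a log2 difference of 0.07 (SE 0.10, adjusted p = 0.66). Without UV its difference was 1.41, and the change of the contrast was -1.38 (SE 0.12, adjusted p = 4.08e-04). Jointly normalized, ATF3 averaged 4769 in irradiated U373cc3 and 4545 in irradiated U373neo, against 2596 in untreated U373cc3 and 956 in untreated U373neo. SMAD7, the feedback inhibitor of TGF-beta signalling, averaged 188 in irradiated U373cc3 and 210 in irradiated U373neo, against 466 in untreated U373cc3 and 232 in untreated U373neo (change of the contrast -1.16, SE 0.16, adjusted p = 0.0050). For SMAD7 the values that moved were those of U373cc3. PAX9, a paired-box transcription factor, averaged 159 in irradiated U373cc3 and 199 in irradiated U373neo, against 201 in untreated U373cc3 and 127 in untreated U373neo (change -0.99), with a difference after UV of -0.30 (adjusted p = 0.059). CDKN1A, the cyclin-dependent kinase inhibitor p21, read 3603, 3857 and 3760 in irradiated U373cc3 and 3864, 4177 and 3960 in irradiated U373neo, a log2 difference of -0.10 (SE 0.06, adjusted p = 0.29). Its contrast without UV was 0.40 and the change was -0.52 (adjusted p = 0.047), a call that was lost in 13 of the 16 alternatives.

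TBX2 and DUSP1 were higher in irradiated U373cc3 by a narrower margin, with lower values in U373cc3 after UV and higher values in U373neo. TBX2 averaged 3985 in irradiated U373cc3 and 612 in irradiated U373neo, against 7457 in untreated U373cc3 and 511 in untreated U373neo (change -1.16, SE 0.11, adjusted p = 4.08e-04). DUSP1, a phosphatase that inactivates MAP kinases, averaged 5097 in irradiated U373cc3 and 3470 in irradiated U373neo, against 6685 in untreated U373cc3 and 2228 in untreated U373neo (change -1.03, SE 0.12). Its 1.505-fold difference after UV was not past the threshold within the shared serial range (adjusted p = 0.058). ADM, which encodes the vasodilator peptide adrenomedullin, turned its direction. It averaged 197 in irradiated U373cc3 and 331 in irradiated U373neo, against 167 in untreated U373cc3 and 138 in untreated U373neo (change -1.03, SE 0.09, adjusted p = 4.29e-04). ZNF816, a zinc finger gene, averaged 126 in irradiated U373cc3 and 256 in irradiated U373neo, against 274 in untreated U373cc3 and 225 in untreated U373neo (change -1.31, SE 0.18).

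**Figure D3:**
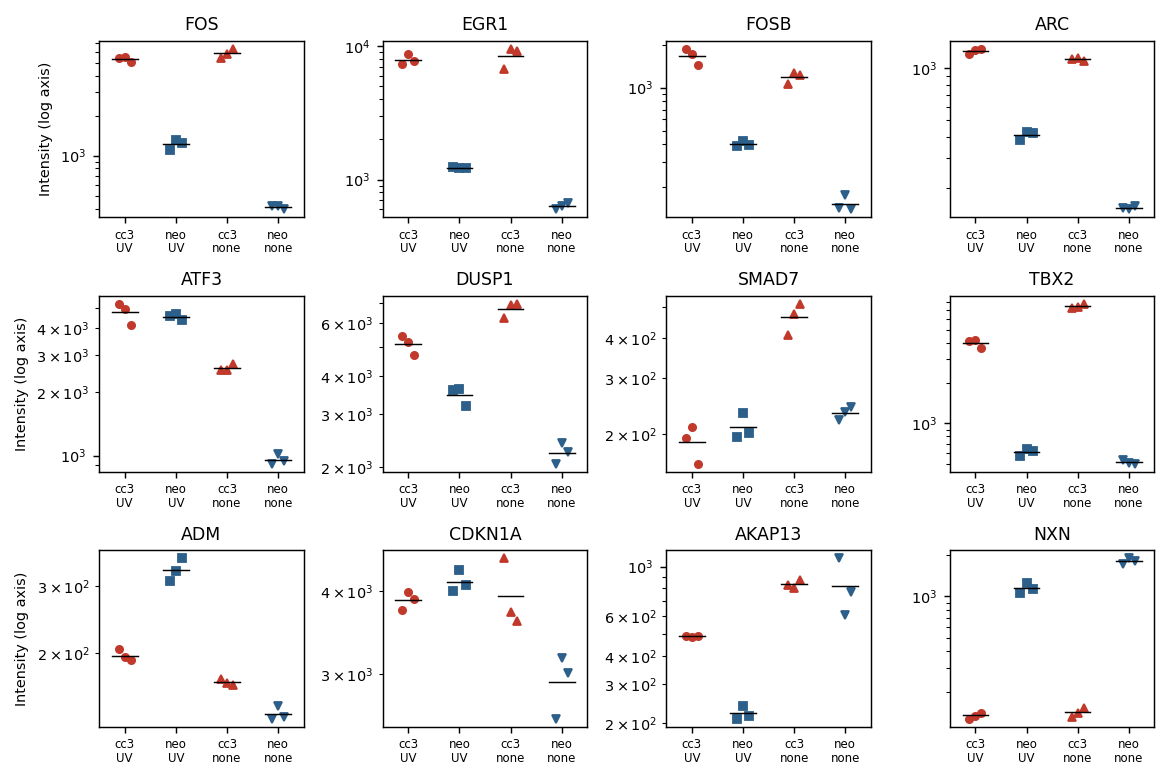
Intensity (log axis, 36 arrays normalized together) of 12 genes in irradiated U373cc3 and U373neo (cc3 UV, neo UV) and in untreated U373cc3 and U373neo (cc3 none, neo none), 1 point per biological replicate with the mean as a line. FOS and EGR1 have overlapping U373cc3 values with and without UV, and ARC is slightly higher in irradiated U373cc3. FOS, EGR1 and ARC all have higher U373neo values after UV. ATF3 reads nearly the same in both irradiated clones, and SMAD7 is high only in untreated U373cc3.

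The rises of the contrast after UV were less stable. AKAP13, an anchoring protein of protein kinase A that also activates RhoA, was the only one of the 10 largest whose clones differed by over 2-fold after UV. It read 455, 450 and 451 in irradiated U373cc3 and 196, 227 and 207 in irradiated U373neo (2.15-fold, log2 1.11, SE 0.07, adjusted p = 1.52e-04), with a log2 difference of 0.07 without UV. Jointly normalized it averaged 490 in irradiated U373cc3 and 222 in irradiated U373neo, against 837 in untreated U373cc3 and 822 in untreated U373neo, so that both clones were lower after UV. The change of 1.08 (SE 0.22, adjusted p = 0.021) missed the threshold without U373cc3 untreated replicate 2 (adjusted p = 0.054) and without U373neo UV replicate 3 (adjusted p = 0.053). DPYD, the first enzyme of pyrimidine breakdown, averaged 444 in irradiated U373cc3 and 334 in irradiated U373neo, against 756 in untreated U373cc3 and 1184 in untreated U373neo (change 1.04, SE 0.16, adjusted p = 0.0066). ADH4, an alcohol dehydrogenase, averaged 463 in irradiated U373cc3 and 328 in irradiated U373neo, against 271 in untreated U373cc3 and 408 in untreated U373neo (change 1.06, SE 0.20). DPYD and ADH4 kept this call in all alternatives, although their differences after UV alone (log2 0.40 and 0.48) were lost in 7 and 9 of the alternatives tried. For PXDN, a peroxidase of the basement membrane, the change was 1.18, with averages of 171 in irradiated U373cc3 and 154 in irradiated U373neo, against 136 in untreated U373cc3 and 282 in untreated U373neo. It was lost over 36 single arrays with the serial range as a term (adjusted p = 0.13). FAM167B, CSF3R, MAP3K13, HUNK, AJUBA and STYK1 had changes of 1.03 to 1.14 that were lost in 7 to 12 of the 16 alternatives. TFRC, the transferrin receptor, averaged 16159 in irradiated U373cc3 and 8475 in irradiated U373neo, against 18339 in untreated U373cc3 and 13973 in untreated U373neo (change 0.54, SE 0.10, adjusted p = 0.017), and kept its call throughout.

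Genes of the integrated stress response, which slows translation and raises ATF4 target genes, and of the unfolded protein response were more often higher than lower in irradiated U373cc3. Of 33 measured members 14 were higher (42.4%), 3 were lower (9.09%) and 16 did not pass, against 19.1% higher and 21.0% lower over all genes, with a median log2 difference of 0.23 (0.26 without UV). DDIT3, the transcription factor CHOP, averaged 10308 ± 455 in U373cc3 and 3121 ± 101 in U373neo (3.30-fold, log2 1.72, SE 0.06, adjusted p = 2.38e-05). ATF5, a translationally controlled activator, averaged 820 ± 83.4 in U373cc3 and 336 ± 44.2 in U373neo (2.45-fold). CHAC1, which degrades glutathione, was higher by log2 0.84, and the amino acid genes SLC3A2, ASNS, SLC7A5, PHGDH and PSAT1 by 0.24 to 0.56. CEBPG, a partner of ATF4 at its target sites, went the other way with 819 ± 33.0 in U373cc3 and 1730 ± 67.2 in U373neo (2.11-fold lower). The chaperones of the endoplasmic reticulum HSPA5, HSP90B1 and CALR did not pass the test, at log2 -0.10, -0.10 and -0.22.

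Of 37 measured genes of nucleotide excision repair, 4 were higher in U373cc3 (10.8%), 12 lower (32.4%) and 21 did not pass (median -0.14), against 19.1% higher and 21.0% lower over all genes. DDB2, the damage-binding subunit that recognizes UV lesions in chromatin, read 407, 425 and 407 in irradiated U373cc3 and 1274, 1390 and 1449 in irradiated U373neo (3.31-fold lower, log2 -1.73, SE 0.07, adjusted p = 3.16e-05). Its change of the contrast against untreated cells did not pass (log2 -0.32, adjusted p = 0.089). ERCC5, the endonuclease that cuts on the 3′ side of a lesion, was lower by log2 -1.24, DDB1 by -0.87 and the polymerase subunit POLD3 by -0.55. Of the 12 lower genes, 5 lie on chromosomes 11 and 13, where most genes were lower. Among these 5 are DDB2, DDB1 and POLD3 on chromosome 11 and ERCC5 on chromosome 13. Elsewhere 7 of 30 were lower with a median of -0.01, against 17.0% lower over all genes off these chromosomes. The 4 higher genes were ERCC3, MNAT1, RAD23B and CUL4B, at 0.31 to 0.55. Among 25 p53 target genes 8 were lower (32.0%), led after DDB2 and SPATA18 by TP53INP1 (-1.34), an autophagy and stress gene, and FDXR (-1.22), a mitochondrial reductase. Of these 8, 2 lie on chromosomes 11 and 13, among them DDB2. The study holds that U373 cells most likely lack functional p53, and p53 activity was not tested here. PLK3, ZMAT3, SESN2 and GADD45A were higher (16.0%) by 0.46 to 1.08, and 13 genes including CDKN1A and BAX did not pass.

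Of 19 measured growth factor receptors and ligands 10 were lower in irradiated U373cc3 (52.6%), 4 were higher (21.1%) and 5 did not pass. Over all genes 21.0% were lower and 19.1% higher. The list's median log2 difference was -0.59 (-0.64 without UV). Within the shared serial range the median was -0.34. Off chromosomes 11 and 13 it was -0.07, and 6 of those 15 members were lower, against 17.0% of all genes off these chromosomes. Behind ALK, MDK, the growth factor midkine, averaged 239 ± 2.63 in U373cc3 and 808 ± 16.3 in U373neo (3.38-fold lower, adjusted p = 1.29e-05). IGFBP5, a binding protein of insulin-like growth factors, averaged 2058 ± 256 in U373cc3 and 5915 ± 309 in U373neo (2.89-fold lower) on its brighter probe, while a dim second probe read log2 -0.19 (adjusted p = 0.36). IGFBP4 was lower by log2 -1.36, and the fibroblast growth factor receptors FGFR1 and FGFR2 by -0.95 and -1.07. FGF9, the ligand GAS6 and VEGFB were lower as well, at -1.01, -1.06 and -0.65. DDR2, a collagen receptor, IGF2R, TYRO3 and NRG1 were the higher members (0.41 to 1.14), and EGFR, at -0.07, did not pass.

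HOX genes, which encode body-axis transcription factors, were lower more often than higher. Of 22 measured HOX genes and cofactors 10 were lower in irradiated U373cc3 (45.5%), 1 was higher (4.55%) and 11 did not pass (median -0.33, and -0.19 without UV), beside 21.0% lower and 19.1% higher over all genes. HOXD11 read 383, 370 and 448 in U373cc3 and 1216, 1056 and 1122 in U373neo (2.83-fold lower, adjusted p = 1.48e-04). The cofactor PBX3 was lower by -0.98, HOXB7 by -0.74, HOXA9 by -0.71, HOXA10 by -0.65 and HOXC8 by -0.58, so members of all 4 clusters were among them, while HOXC13 was higher by 0.46. Proteins of the HOX family are similar within paralog groups, and the probes were not tested for cross-hybridization.

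The extracellular matrix and protease list was split, with 15 of 42 measured genes higher (35.7%), 10 lower (23.8%) and 17 not past the threshold (median 0.14). Over all genes 19.1% were higher and 21.0% lower. Behind SDC2, MMP2, a gelatinase, averaged 630 ± 15.6 in U373cc3 and 167 ± 15.01 in U373neo (3.78-fold). SPARCL1, a matrix protein related to osteonectin, was higher by log2 1.72, the laminin receptor subunit ITGA7 by 1.56 and the laminin chains LAMB1 and LAMC1 by 1.04 each. LUM, the collagen-binding proteoglycan lumican, was lower by -1.10, the integrin subunit ITGA6 by -0.79 and cathepsin D (CTSD) by -0.76. Of 27 adhesion molecules 8 were higher (29.6%), led by CDH19, CDH18 (0.94) and MCAM (0.89). Another 6 were lower (22.2%), led by the tetraspanins CD81 (-0.79) and CD151 (-0.69). Of these 6, 3 lie on chromosomes 11 and 13, among them CD81. CDH18 was not past the threshold within the shared serial range, where its adjusted p was just above 0.05. MCAM lies on chromosome 11 and averaged 6050 ± 345 in U373cc3 and 3264 ± 87.7 in U373neo. CDH2, N-cadherin, did not pass at -0.05. Among 29 guidance genes 4 were higher (13.8%) and 8 lower (27.6%). CRMP1, a mediator of semaphorin signalling, was at -1.64, the ligand EFNB2 at -1.06 and SEMA3C at 0.67.

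Of 61 measured genes of the cell cycle 6 were higher in irradiated U373cc3 (9.84%), 20 lower (32.8%) and 35 did not pass (median -0.10, and -0.17 without UV), where 19.1% of all genes were higher and 21.0% lower. CDCA5, the cohesin regulator sororin, was lower by log2 -1.26, the cyclins CCNE1 and CCNE2 by -1.09 and -0.81, the checkpoint kinases WEE1 and CHEK1 by -1.08 and -0.70 and RB1 by -0.97. CCNE1 was not past the threshold within the shared serial range (adjusted p = 0.064). Of the 20, 6 lie on chromosomes 11 and 13. The mitotic genes CENPE, NUSAP1, PLK1, PRC1 and TPX2 were higher by 0.25 to 0.66, and MKI67 did not pass at 0.15. Of 42 redox genes 3 were higher (7.14%) and 12 lower (28.6%), of which 4 lie on chromosomes 11 and 13 (TALDO1, PRDX5, CAT and GSTP1, at -1.06 to -0.44). HMOX1, haem oxygenase 1, was the largest rise of that list with 1054 ± 54.8 in U373cc3 and 427 ± 31.4 in U373neo (2.47-fold), and its contrast was smaller after UV (change -0.66, SE 0.11, adjusted p = 0.010).

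The remaining lists are set beside the shares over all genes, 19.1% higher and 21.0% lower, and several lay near them. Lysosome and autophagy genes had 17 higher (32.1%) and 14 lower (26.4%) of 53. ATG13 (0.88), ATG4A (0.78) and WIPI1 (0.70) stood at one end and ATG2A (-1.09), TPP1 (-0.87) and CTSF (-0.80) at the other. Of the 14 lower genes 6 lie on chromosomes 11 and 13, among them ATG2A, TPP1 and CTSF. The higher gene ATG13 lies on chromosome 11 as well. Nuclear transport genes had 12 higher (23.1%) and 9 lower (17.3%) of 52. The higher ones were small differences of 0.23 to 0.49, led by XPO7 and TNPO1, and the lower ones reached -0.93 for the pore protein NUP153, -0.86 for IPO5 and -0.76 for IPO7, 5 of the 9 lying on chromosomes 11 and 13. Cytoskeleton genes had 8 in each direction of 38 (21.1%), with PALLD and ACTN4 (-0.82) lower and ZYX (1.05) and the microtubule protein gene MAPT (0.95) higher. Apoptosis genes had 6 higher (16.2%) and 8 lower (21.6%) of 37, from HRK (1.01) to BAD (-0.97). Of the 8 lower genes 3 lie on chromosomes 11 and 13, among them BAD. The Wnt list had 7 higher (22.6%) and 5 lower (16.1%) of 31, with the co-repressor TLE1 at 1.12 and the beta-catenin inhibitor CTNNBIP1 at -1.77. BMP and TGF-beta genes had 4 higher (14.3%) and 6 lower (21.4%) of 28, from FSTL1 (1.69) to TGIF2 (-0.89). Cholesterol synthesis had 5 higher and 3 lower of 22, all 3 lower genes (TM7SF2, DHCR7 and SC5D) lying on chromosome 11. Glycolysis had 4 higher and 1 lower of 18, none beyond 0.38 in size. Of these calls HK1 was lost in 8 alternatives, PFKFB3 in 7, the lower gene PGK1 in 9 and PFKP within the shared serial range. Of 14 zinc transporter and metallothionein genes 3 were higher, by at most 0.30. The calls of SLC30A1 and SLC30A5 were lost in 12 alternatives each, and that of SLC39A3 in 2, with the serial range as a term and within the shared range. Of 11 interferon-stimulated genes ISG15 (1.05) and IFI6 (0.69) were higher and IRF1 (-0.32) lower, and of 11 cytokines IL12A (1.61) and TNFSF9 (0.71) were higher. IRF1 lost its call in 4 alternatives, reading -0.12 over 36 single arrays with the serial range as a term (adjusted p = 0.87), and TNFSF9 lost its call in 3, among them the replicate block (adjusted p = 0.053) and the shared serial range (adjusted p = 0.059). None of the 4 antigen presentation genes passed. Of 21 control genes 3 were higher and 5 lower (median -0.04), from TFRC at 0.96 to SNRPD3 at -0.51, whose call was lost in 6 alternatives.

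**Figure D4:**
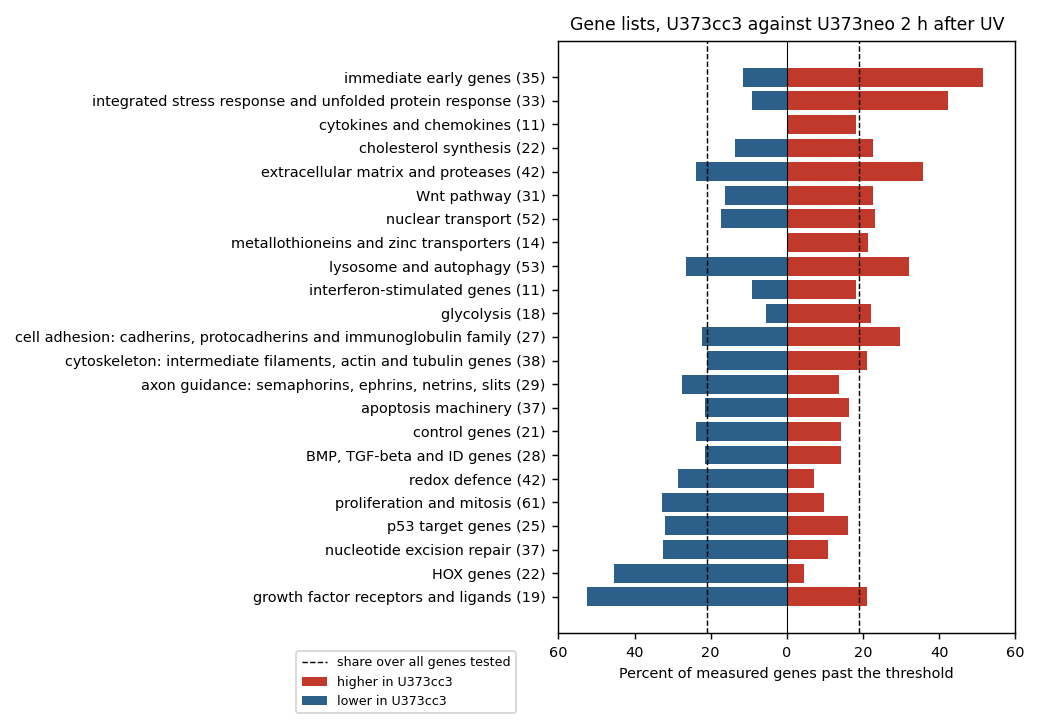
Percent of the measured genes of each list that were higher (red, to the right) or lower (blue, to the left) in irradiated U373cc3 than in irradiated U373neo, with the number measured in parentheses and lists ordered by median log2 difference. Dashed lines mark the shares over all 8310 genes, 19.1% higher and 21.0% lower. Immediate early genes reach farthest to the right, and growth factor and HOX genes farthest to the left.

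Markers of other cell types were checked beside these lists. Over all genes 19.1% were higher in irradiated U373cc3 and 21.0% lower, and so few markers were measured that their counts cannot be set apart from these shares. Of 4 measured melanocyte markers GPM6B and TYRP1 (log2 0.88) were higher, while SOX10 (-0.04) and RAB27A (0.18) did not pass. Their summed intensity was 6229 to 6417 in U373cc3 and 2383 to 2770 in U373neo, and most of this difference was GPM6B. Of 4 fibroblast markers LUM and FAP (-0.71) were lower and COL1A1 and S100A4 did not pass, with sums of 5065 to 5451 in U373cc3 and 7046 to 7409 in U373neo. Of 9 neuronal markers GAD1 (0.86) was higher, and none of 3 leukocyte markers passed. No epithelial marker had a value. The part of such cells in the gene lists was not tested.

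By position, chromosomes 11 and 13 stood apart from the others. Of 499 measured genes of chromosome 11, 323 were lower in irradiated U373cc3 (64.7%) and 17 higher, with a median log2 difference of -0.45, and of 130 genes of chromosome 13, 107 were lower (82.3%) and 3 higher, with a median of -0.74. Without UV the medians were -0.47 and -0.75. These 629 genes held 24.7% of all lower genes. Over the 7642 genes of the other chromosomes, 1559 were higher (20.4%) and 1301 lower (17.0%), and the median was 0.03. The other chromosome medians lay between -0.06 and 0.15. Chromosome 18 had the largest share of higher genes, 38 of 109 (34.9%). At least 2-fold falls were 98 genes on chromosomes 11 and 13 and 98 genes elsewhere, and of the 20 largest falls 3 (TP53I11, RASSF7 and B3GLCT) lay on these chromosomes.

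**Figure D5:**
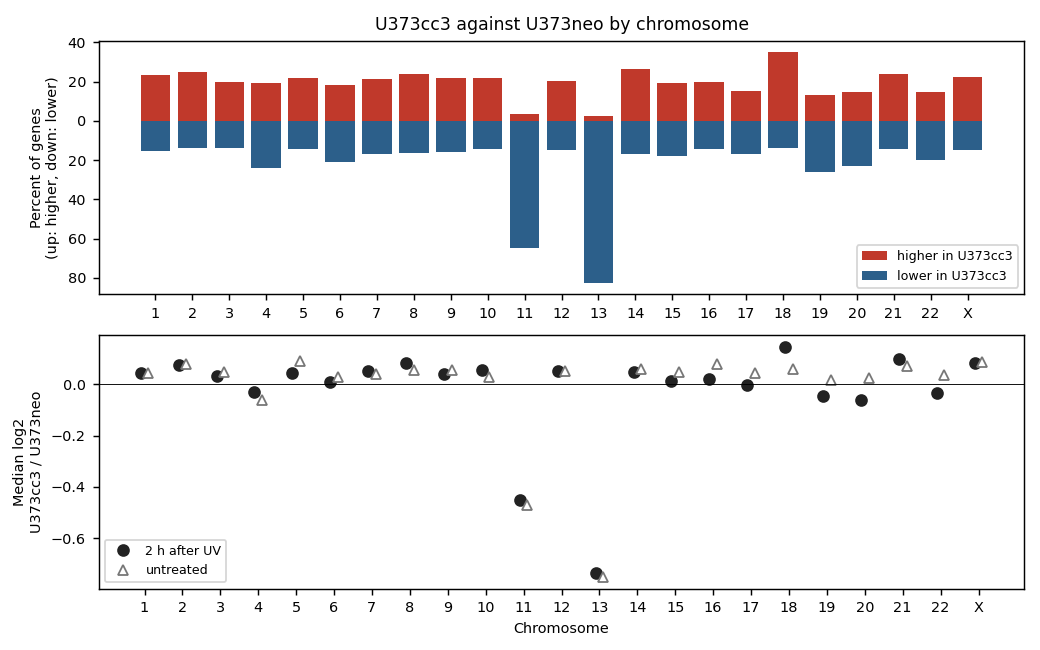
Upper panel, percent of the measured genes of each chromosome that were higher (red, up) or lower (blue, down) in irradiated U373cc3 than in irradiated U373neo. Lower panel, median log2 difference per chromosome after UV (filled circles) and without UV (open triangles), with chromosomes 11 and 13 at -0.45 and -0.74 after UV and the others near 0.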

How the data were processed

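RNA of U373cc3 and U373neo clones was profiled on 36 arrays, of which the 18 UV arrays carry the comparison. According to the methods, the authors labelled amplified RNA with Cy5, scanned with a GenePix instrument and normalized by quantiles in GeneSpring GX. The deposited values are linear probe intensity values between 10.9 and 65490 on the UV arrays. The sources used here do not give why probes are blank or which arrays were normalized together. Array medians were 746 to 748 with UV and 895 to 896 without, so the treatments had been scaled apart. The number of arrays limits the precision, and 81 probes over 60000 lie near the scanner limit.

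Intensities were taken to log2, the 3 technical arrays of a replicate averaged, and the 6 replicates fitted with limma 3.58.1 (lmFit, eBayes) in R 4.3.3, with Benjamini-Hochberg adjustment over all probes. Changes of the contrast were fitted over 12 replicates after joint quantile normalization of the 36 arrays (limma normalizeQuantiles). Technical arrays and serial ranges as random or fixed effects used statmod 1.5.0. Of 9147 UV probes with 1 symbol, 7703 symbols were current in the gene table of GRCh38.p14, 1402 were updated and 42 unmatched. For 807 genes with several probes the brightest was used, and 7 had probes past the threshold in opposite directions. The 698 probes with values only on untreated arrays were not used here.

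Named genes are the 20 largest rises and falls, the 8 largest of each among UV-only probes, the 10 largest of each among changes of the contrast, genes the study names and up to 4 members per list. The largest rises and falls, also among UV-only probes, were taken from genes past the threshold whose clone replicates did not overlap. The values of other list members were named after they were seen. Members and lists were chosen with earlier results of these data known. Only the main fit of the irradiated clones was run on simulated data, with independent noise and a far smaller share of changed probes than was called here. The fits of the change of the contrast and of the alternatives were not simulated. Scaling, summary of technical arrays, serial range, replicate block, shared spread, filters, the methods' t-test and left-out replicates were tried as alternatives.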

Additional observations from a re-analysis of the deposited data

Results flagged for a closer look

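The clone contrast differed between irradiated and untreated cells for 719 probes. Values are changes of the log2 difference U373cc3 over U373neo, after UV minus untreated, past an adjusted p of 0.05 in the fit over 12 replicates. Groups held 3 replicates, too few for a search for single outlying samples.

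Changes to a lower contrast were -1.70 for FOS, -1.38 for ATF3, -1.31 for ZNF816, -1.24 for ARC, -1.16 for both TBX2 and SMAD7, -1.03 for EGR1, DUSP1 and ADM, -0.99 for PAX9 and -0.89 for FOSB. They were -0.66 for HMOX1, -0.59 for RASSF7, -0.52 for CDKN1A, -0.51 for MDK and -0.46 for MCAM. In HMOX1 and MCAM the clones were closer after UV, and in MDK and RASSF7, which are lower in U373cc3, they were farther apart. RASSF7 averaged 149 in irradiated U373cc3 and 609 in irradiated U373neo, against 144 in untreated U373cc3 and 390 in untreated U373neo. The changes of CDKN1A and MDK lost their call in 13 alternatives each, that of RASSF7 in 7 and that of MCAM in 3.

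Changes to a higher contrast were 1.18 for PXDN, 1.14 for FAM167B, 1.11 for CSF3R, 1.08 for AKAP13, 1.06 for ADH4, 1.05 for MAP3K13, 1.04 for both HUNK and DPYD, 1.03 for AJUBA and STYK1, 0.60 for NXN and 0.54 for TFRC. For NXN the level in U373cc3 was low under both treatments (135 irradiated, 142 untreated), and U373neo averaged 1146 irradiated and 1821 untreated. The replicates of irradiated U373cc3 were uneven for CSF3R (257, 139 and 269), AJUBA (1506, 1112 and 1978) and MAP3K13 (175, 125 and 220), with replicate 2 the lowest in each.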

How the results depend on the processing

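Of 135 named genes past the threshold after UV, 116 kept direction and call in all alternatives, and none reversed, over 2729 values of which 100 lost the call. The count of 4593 probes lay between 2627 and 5507, and between 3266 and 4272 with 1 replicate left out. It fell beyond 1.5 times only to 2627, within the shared serial range, where fewer replicates were fitted. With the serial range as a term it was 3654, by the methods' t-test 5317 unadjusted and 3698 after Benjamini-Hochberg. The at least 2-fold count (417) ranged from 341 to 517 in all alternatives, 407 to 457 with a replicate left out, and the share of higher calls from 40.0% to 49.5%. ATF3, not past the threshold, read -0.14 with the serial range as a term and within the shared range, -0.13 over 36 single arrays with that term and -0.010 to 0.17 with 1 replicate left out. PXDN, also not past it, read -0.13 over 36 single arrays with the serial range as a term and -0.0015 to 0.24 with 1 replicate left out.

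The 719 changes of the contrast became 451 with the replicate block, 584 on intensities as deposited, 592 with median centring and, in an alternative chosen after seeing the data, 1799 over 36 single arrays with the serial range as a term. With 1 replicate left out they were 229 to 973. Of 28 named changes 16 kept their call in all 16 alternatives. The cause of these shifts was not tested.

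Replicate numbers were not taken to pair the cultures. Deviations of same-numbered replicates correlated at -0.10, 0.35 and -0.08, of which 0.35 was the highest of all pairings. With 3 replicates per clone, these values cannot decide whether the cultures were paired. With the replicate block 3938 probes passed, of which 3804 were among the 4593. Of 24 list medians 4 changed sign in some alternative, none of them over 0.071 in size. Levels low on the array and those over 60000 limit how well a fold is measured.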
